A study of Mus musculus with 72 samples.

Results

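Gluconeogenesis was followed here through 7 genes in mouse liver, which were the rows of the count table whose symbols were Pck1, Pck2, G6pc, Slc37a4, Fbp1, Pcx and Ppargc1a, out of 55573 genes in the table. Polyadenylated RNA was sequenced from 72 livers of male C57BL/6 mice (C57BL/6J in the study's methods), 18 in each of 4 groups, with 3 livers at each of 6 Zeitgeber times (ZT2, ZT6, ZT10, ZT14, ZT18 and ZT22, where ZT0 is lights on). WT mice were Bmal1 fl/fl without Cre, and LKO mice (labelled L-Bmal1-KO) were Bmal1 fl/fl Albumin-Cre, so that all 4 groups carried the floxed allele and the Cre transgene was carried only by LKO. Each genotype was kept with a conventional specific pathogen-free microbiota (SPF) or germ free (GF), and the germ-free line was derived again from the SPF line. The study's methods place germ-free mice in film isolators, so the effect of microbes cannot be told apart from that of housing or line. All mice were adult, were housed singly under a 12:12 light/dark cycle and had autoclaved chow at all times. Cre under the Albumin promoter acts in hepatocytes, so other liver cells were not targeted. No group of Albumin-Cre mice without the floxed allele is used here, and the effect of Cre itself and that of the deletion cannot be told apart. The sample labels give no litter, cage or mouse number.

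Gluconeogenesis makes glucose from lactate, glycerol and amino acids, and the liver is its main site during fasting. Pyruvate is carboxylated to oxaloacetate in mitochondria by pyruvate carboxylase (Pcx), and oxaloacetate is turned into phosphoenolpyruvate by a cytosolic (Pck1) or a mitochondrial (Pck2) carboxykinase. Fructose-1,6-bisphosphatase (Fbp1) bypasses phosphofructokinase, and glucose 6-phosphate then enters the endoplasmic reticulum through its transporter (Slc37a4), where glucose-6-phosphatase (G6pc) releases free glucose. Ppargc1a encodes PGC-1α, a fasting-induced coactivator of Pck1 and G6pc transcription, and BMAL1 is the clock protein that with CLOCK or NPAS2 binds E-box DNA.

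Library totals ran from 17369927 to 22076113 counts, with a median of 19106725.5. Since the floxed exon cannot be told apart in gene-level counts, Npas2, a BMAL1 partner gene, was used to check the genotype labels. Levels are given in CPM, the count per 1000000 counts of the library after its total was scaled by a TMM normalisation factor. Npas2 lay between 0 and 12.9 CPM in the 36 WT libraries and between 14.3 and 44.7 CPM in 34 of the 36 LKO libraries. The libraries labelled SPF LKO ZT14 replicate 2 (0.220 CPM) and SPF LKO ZT18 replicate 1 (1.81 CPM) had Npas2 within the WT range, which goes against their label, and results of the 7 genes pooled over ZT, their rhythms and the lists below are given with and without them. Arntl, the gene of BMAL1, also stood apart in SPF WT ZT14 replicate 3 (2.12 CPM, against 15.9 and 19.4 in the other livers of its set) and in GF WT ZT6 replicate 3 (8.19 CPM, against 1.62 and 2.44). Leaving these out too is called here the fit without 4 libraries. In SPF LKO ZT14 replicate 2 the CPM of Pck1 (3783), Slc37a4 (257), Fbp1 (1040.1), Pcx (492) and Ppargc1a (16.9) was the highest of all 18 SPF LKO libraries. Of the hepatocyte markers, Alb was present in every library at 24772 CPM or more, and the summed level of 5 hepatocyte markers ran from 78035 to 127508 CPM in SPF WT, from 39488 to 121071 in SPF LKO, from 107901 to 167679 in GF WT and from 48239 to 69123 in GF LKO. The difference in the summed level lay mostly in Alb itself. Alb was lower in LKO by a log2 fold change of -0.98 in SPF (-1.21 without the 2 libraries) and -1.70 in GF. In GF LKO against GF WT 4 of 5 hepatocyte markers passed the test (3 lower, 1 higher, median -0.21), beside 30.8% of all genes. So did 4 of 5 pericentral (3 lower, 1 higher, median -0.28) and 2 of 5 periportal hepatocyte markers (1 lower, 1 higher). In SPF LKO against SPF WT these counts were 2, 2 and 0 of 5, beside 23.1%, and the same without the 2 libraries, beside 28%. The summed level of 4 Kupffer cell markers ran from 167 to 418 CPM in SPF WT and from 163 to 261 CPM in SPF LKO, where 3 of the 4 were lower, and from 137 to 274 CPM in GF WT and 103 to 239 CPM in GF LKO, where 0 of 4 passed the test. The part of these marker shifts in the results below was not tested. In bulk liver RNA, fewer cells of a type and less RNA per cell cannot be told apart.

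The 7 genes fell into 3 ranges of abundance per length of annotated exon. That length covers all exons of a gene and not 1 transcript, from 1702 bases for Fbp1 to 7806 for Pck2. In CPM per kilobase of exon, averaged over all 72 livers, Pck1 was the most abundant at 746 ± 333 (SD), followed by Fbp1 at 485 ± 67.7 and G6pc at 318 ± 117, with the SD bands of neighbours overlapping. Pcx at 78.4 ± 13.4 and Slc37a4 at 66.2 ± 24.0 formed the middle range, and these neighbours lay within each other's spread. Ppargc1a at 1.67 ± 0.78 and Pck2 at 0.315 ± 0.109 were the least abundant, with bands that did not overlap, and the mitochondrial carboxykinase transcript lay far below its cytosolic counterpart in every group. Counts behind the levels ran from 1798 to 92147 per library for the 5 abundant genes, from 80 to 610 for Ppargc1a and from 16 to 99 for Pck2, where counting error alone reached 25% of the value at the lowest count.

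Each gene is protein coding and lies on its own chromosome in build GRCm38 (mm10). On the plus strand these are Pck1 (chr2:173153048-173159273), Slc37a4 (chr9:44396852-44402968), G6pc (chr11:101367561-101377903), Pck2 (chr14:55540266-55551242) and Pcx (chr19:4510472-4621752). On the minus strand they are Ppargc1a (chr5:51454250-51567726) and Fbp1 (chr13:62864753-62888282).

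The genes also differed in spread. The highest library exceeded the lowest by 11.1-fold for Pck1, 7.27-fold for Ppargc1a, 6.10-fold for G6pc, 4.66-fold for Slc37a4, 4.65-fold for Pck2, 2.14-fold for Pcx and 1.82-fold for Fbp1. Mice of the same group killed at the same ZT differed most in Pck1, with an SD of 0.73 on the log2 CPM scale, and in Ppargc1a (0.58), and least in Slc37a4 (0.21), Pcx (0.18) and Fbp1 (0.16). For Pck1 this spread within sets exceeded the SD of the 24 group-by-ZT means (0.51), whereas for Slc37a4 the means varied more (0.50) than the mice within a set.

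**Figure D1:**
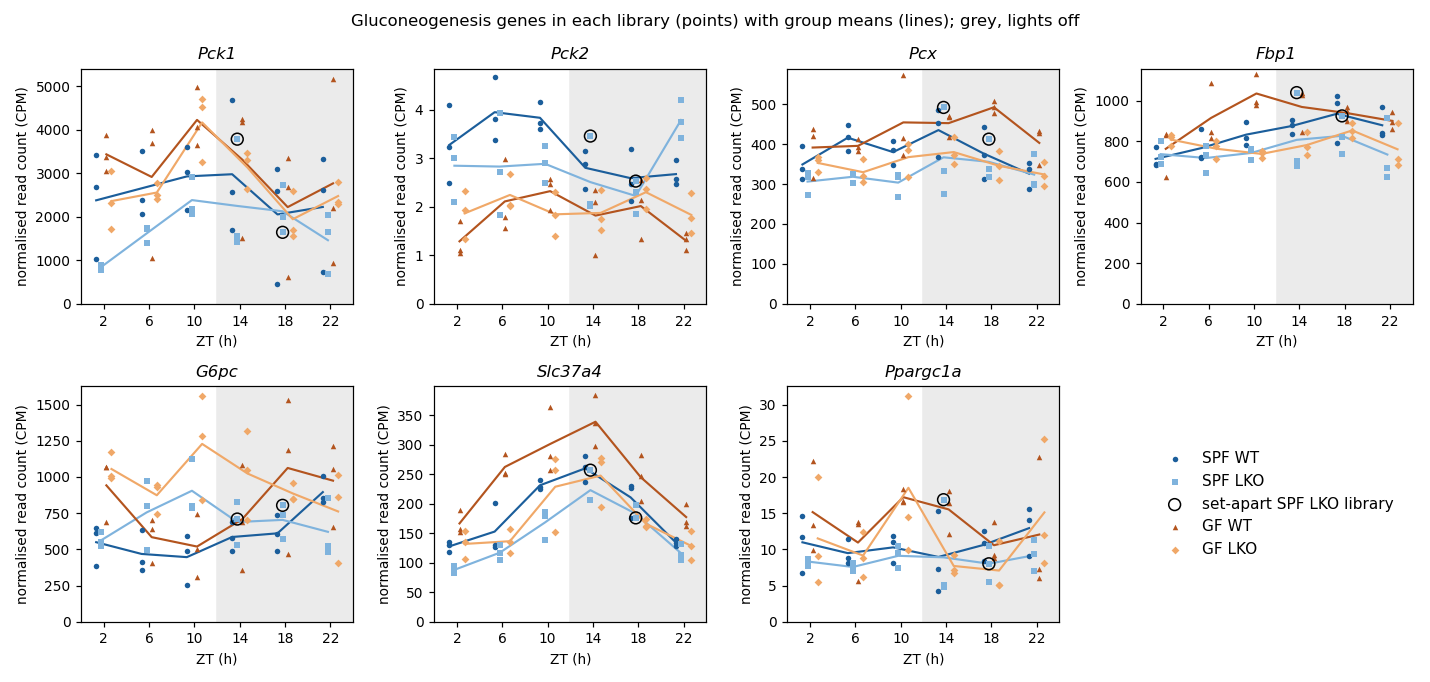
Level of each of the 7 genes in each of the 72 livers, in CPM on a linear axis from 0, by ZT in h and group, with the 3 livers of each set as points, their mean as a line, lights off in grey and the 2 SPF LKO libraries against their label circled. Slc37a4 traces a daily wave in all 4 groups, while the points of Pck1 and Ppargc1a scatter widely around their means.

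The windows from 250 bases before to 50 bases after the annotated starts (RefSeq, build GRCm38.p6) held short motifs in 5 of the 7 genes. They are shown for 4 of the 5, the enzymes and the transporter with a match, since the targeted factor is a DNA-binding protein, with matches in capitals. Motifs searched on both strands were the E-box CACGTG, found in 7.15% of all 32851 promoter windows of this length, the D-box TTATGTAA or TTACGTAA (1.056%), the nuclear receptor core AGGTCA (16.26%), the cAMP response element core TGACG (20.81%) and the forkhead sequence TGTTTAC (3.65%). The E-box search and the other searches do not overlap in these matches.
Pck1, chr2:173152823-173153122, plus strand: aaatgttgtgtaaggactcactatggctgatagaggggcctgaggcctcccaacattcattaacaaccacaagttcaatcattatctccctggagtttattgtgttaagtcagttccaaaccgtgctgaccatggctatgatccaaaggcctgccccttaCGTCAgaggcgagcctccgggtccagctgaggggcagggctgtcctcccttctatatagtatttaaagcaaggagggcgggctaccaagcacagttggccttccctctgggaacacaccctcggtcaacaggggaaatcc
G6pc, chr11:101367466-101367765, plus strand: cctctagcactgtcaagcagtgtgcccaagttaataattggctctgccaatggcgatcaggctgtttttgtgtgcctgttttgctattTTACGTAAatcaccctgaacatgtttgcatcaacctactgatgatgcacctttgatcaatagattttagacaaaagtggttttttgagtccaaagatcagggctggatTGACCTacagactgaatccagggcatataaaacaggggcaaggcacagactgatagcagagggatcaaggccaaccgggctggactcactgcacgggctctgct
Slc37a4, chr9:44396696-44396995, plus strand: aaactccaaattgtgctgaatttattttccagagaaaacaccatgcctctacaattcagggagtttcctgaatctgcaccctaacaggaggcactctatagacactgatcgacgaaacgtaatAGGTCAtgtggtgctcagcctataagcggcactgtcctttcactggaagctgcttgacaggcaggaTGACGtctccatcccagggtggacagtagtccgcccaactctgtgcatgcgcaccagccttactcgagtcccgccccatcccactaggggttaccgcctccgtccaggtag
Pcx, chr19:4510222-4510521, plus strand: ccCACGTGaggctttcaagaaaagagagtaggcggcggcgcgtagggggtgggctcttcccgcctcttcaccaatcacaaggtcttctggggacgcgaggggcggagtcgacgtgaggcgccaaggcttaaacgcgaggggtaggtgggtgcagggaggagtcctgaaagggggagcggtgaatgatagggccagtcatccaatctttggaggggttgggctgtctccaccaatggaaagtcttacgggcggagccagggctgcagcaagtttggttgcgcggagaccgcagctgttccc
The cAMP response element core of Pck1 began 90 bases before the start on the minus strand. G6pc held a D-box 162 bases before the start and, on the minus strand, a nuclear receptor core 54 bases before it. Slc37a4 held a nuclear receptor core at 127 bases and a cAMP response element core at 61 bases before the first of its 3 annotated starts. The window of its second start, not shown, held a further cAMP response element core on the minus strand, 82 bases before that start. An E-box was found only for Pcx, 248 bases before the first of its 2 starts, and none of the letters searched lay in the Fbp1 and Pck2 windows. The window of the second Pcx start, not shown, held no E-box but a nuclear receptor core on the minus strand, 40 bases after that start. Which start was used in these livers was not tested. Ppargc1a held a cAMP response element core on the minus strand, 49 bases before its start. A match of letters is a description of the sequence and not a measurement of binding.

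To ask how loss of hepatic Bmal1 changed the level of these genes under each microbial status, the 18 LKO and 18 WT livers of all ZT were compared. Tests were edgeR's quasi-likelihood F tests, each adjusted p was corrected by the Benjamini-Hochberg method over all genes tested with 0.05 as the threshold, and differences are log2 fold changes ± SE. In SPF mice 1 of 7 genes passed, which was lower in LKO, and 23.1% of all genes tested did. Without the 2 libraries against their label, 5 of 7 passed, all lower in LKO, beside 28% of all genes. Without 4 libraries 2 of 7 passed, Fbp1 and Pcx, beside 27.9% of all genes, and the adjusted p was 0.0688 for Pck1, 0.0501 for Slc37a4 and 0.0519 for Ppargc1a. In GF mice 3 of 7 passed, all lower in LKO, beside 30.8% of all genes. The median of the 7 differences was -0.21 in SPF, -0.28 in SPF without the 2 libraries and -0.22 in GF, while the median over all genes tested was -0.01 in SPF and 0.01 in GF. Whether the genotype difference itself differed between GF and SPF was tested as an interaction, in which 0 of 7 genes passed (0 of 7 at an unadjusted p under 0.05, smallest adjusted p = 0.879) beside 0.438% of all genes, and 0 of 7 passed with DESeq2. The interaction also gave 0 of 7 (0 of 7 unadjusted) without the 2 libraries, beside 0.259%.

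To ask what differed with microbial status within a genotype, GF and SPF livers were compared. In WT 2 of 7 genes passed, 1 higher and 1 lower in GF, beside 31.8% of all genes. In LKO 3 of 7 passed, 2 higher and 1 lower in GF, beside 36.4% of all genes, and 5 of 7 passed without the 2 libraries, beside 36.7%. The genotype and microbiota comparisons share their groups and are not independent of each other.

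**Figure D2:**
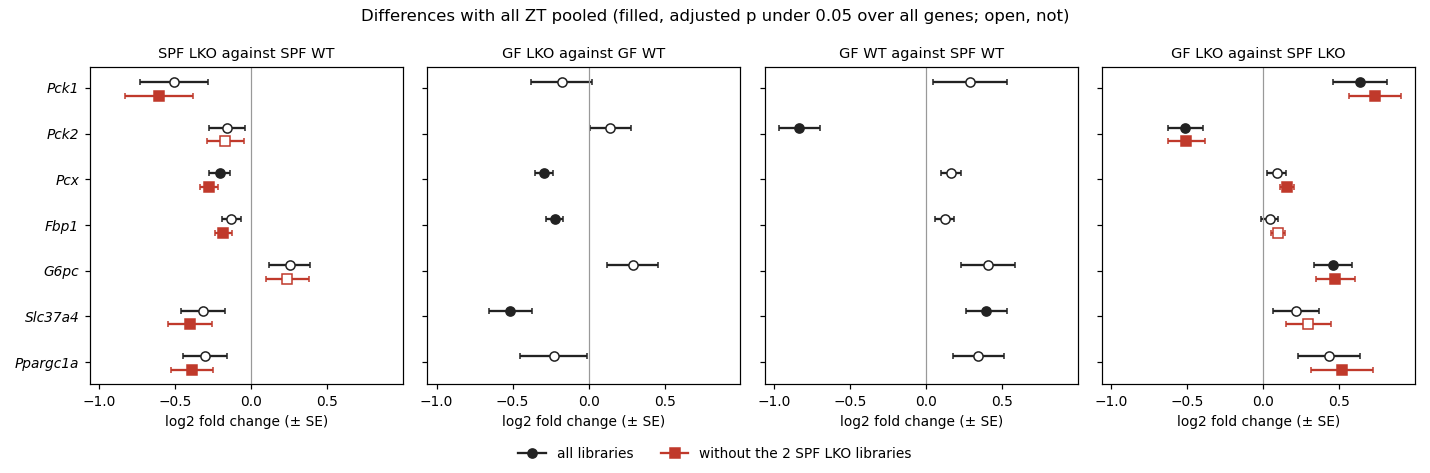
Log2 fold change of each gene in the 4 comparisons pooled over ZT, with bars for ± SE, filled where the adjusted p was under 0.05, and for comparisons with SPF LKO also without the 2 libraries against their label. Pck1, Slc37a4, Fbp1, Pcx and Ppargc1a lie below 0 in LKO under both microbial statuses, not all of them filled, and Pck2 lies below 0 in GF in both genotypes.

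At single ZT, with 7 genes at 6 ZT giving 42 tests in each comparison, 3 passed for SPF LKO against SPF WT, beside 4.92% of all tests, and 5 for GF LKO against GF WT, beside 7.99%. For GF WT against SPF WT 3 passed, beside 2.89%, and for GF LKO against SPF LKO 4 passed, beside 2.71%. Without the 2 libraries the counts with SPF LKO stayed at 3 and 4. The interaction at single ZT gave 0 of 42 (2 at an unadjusted p under 0.05, smallest adjusted p = 0.579), beside 0.00742%. Of these 15 passing differences, those of Slc37a4 at ZT6 and Fbp1 at ZT10 in GF held when each library was left out in turn, and for the other 13 the call was lost when at least 1 library was left out, while the fold kept its direction. Those libraries are named with each gene.

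**Figure D3:**
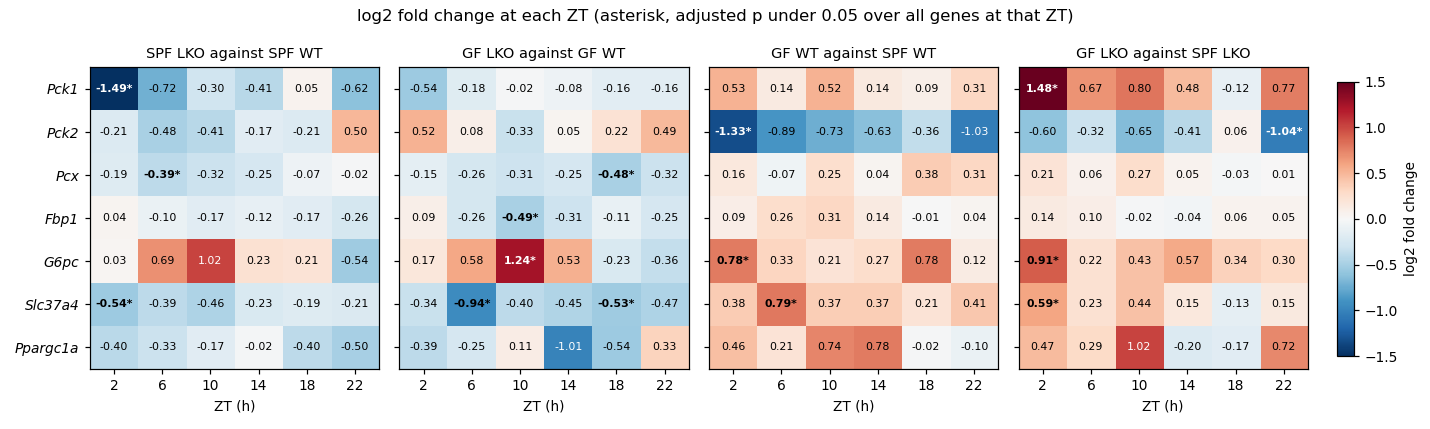
Log2 fold change at each ZT for each gene in the 4 comparisons, as tiles coloured and numbered by the log2 fold change, with an asterisk where the adjusted p was under 0.05. All libraries are included. No asterisk falls on ZT14, and Pck1 carries asterisks only at ZT2. The share of all genes that passed also differed by ZT. In the order SPF LKO against SPF WT, GF LKO against GF WT, GF WT against SPF WT and GF LKO against SPF LKO, it was 0%, 6.1%, 0.0751% and 0.0601% at ZT14. At ZT2 it was 6.89%, 4.21%, 10.1% and 8.92%.

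Daily rhythm was tested with a 24 h cosine in each group. A rhythm was called for 4 of 7 genes in SPF WT (15.5% of all genes), 2 of 7 in SPF LKO (22.3%), 1 of 7 in GF WT (26%) and 2 of 7 in GF LKO (34.8%). Without the 2 libraries, 1 of 7 was called in SPF LKO, beside 19.6% of all genes. A difference in rhythm was called for 0 of 7 genes between SPF LKO and SPF WT (1 of 7 at an unadjusted p under 0.05), beside 1.09% of all genes, and for 0 of 7 between GF LKO and GF WT (2 of 7 unadjusted), beside 5.94%. It was called for 0 of 7 between GF WT and SPF WT (0 of 7 unadjusted), beside 0.0445%, and for 0 of 7 between GF LKO and SPF LKO (1 of 7 unadjusted), beside 5.1%. Without the 2 libraries it was called for 0 of 7 between SPF LKO and SPF WT (3 of 7 unadjusted), beside 1.88%, and for 0 of 7 between GF LKO and SPF LKO (0 of 7 unadjusted), beside 2.79%. With all libraries, the same counts of 0 came from limma on variance-stabilized values.

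**Figure D4:**
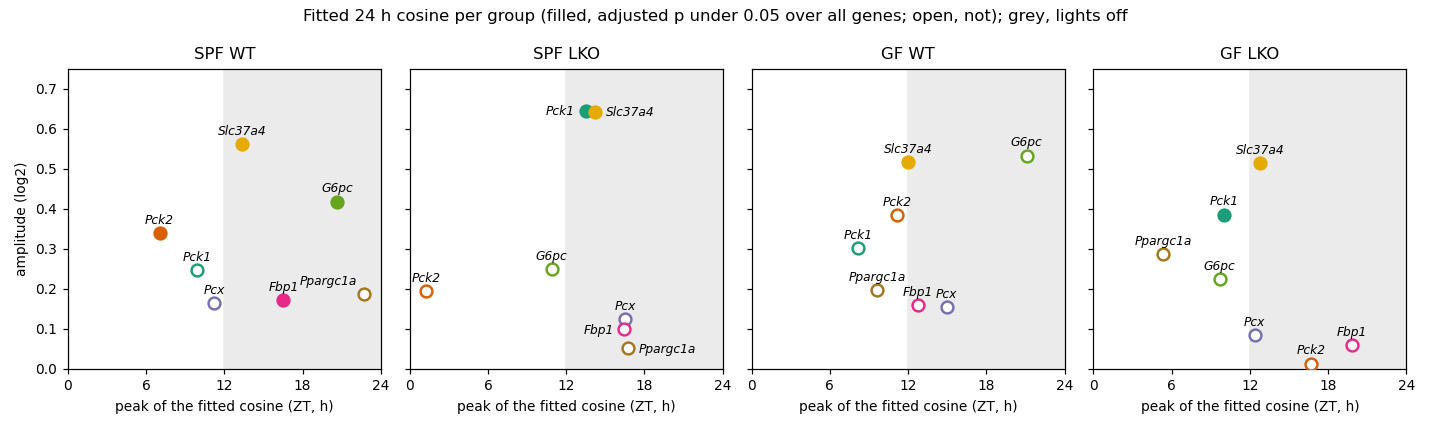
Amplitude (log2, the distance from the mean to the peak) and peak time in ZT of the fitted 24 h cosine for each gene in each group with all libraries, filled where the adjusted p was under 0.05. Slc37a4 is filled in all 4 groups with peaks between ZT 12.02 and ZT 14.2.

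Pcx, which feeds pyruvate carbon into the pathway, was lower in LKO under both microbial statuses. It ran from 288 through a median of 377 to 485 CPM in SPF WT and from 269 through 321 to 492 CPM in SPF LKO, where 492 and 412 CPM were the values of the 2 libraries against their label and the other 16 ended at 374 CPM. In GF WT it ran from 316 through 424 to 574 CPM and in GF LKO from 295 through 353 to 418 CPM. The ranges overlapped in both comparisons, with the LKO values gathered in the lower part of the WT range. The difference was -0.21 ± 0.07 in SPF (n = 18 and 18, adjusted p = 0.0263), -0.28 ± 0.06 without the 2 libraries (adjusted p = 0.000385) and -0.30 ± 0.06 in GF (adjusted p = 0.000110). The SPF call was lost in the fits without ZT2 (-0.21, adjusted p = 0.0625), ZT6 (-0.17, adjusted p = 0.157) or ZT10 (-0.18, adjusted p = 0.117), which held fewer libraries, and without the filter on low counts (-0.20, adjusted p = 0.0735), while the GF call held under every alternative tried. GF LKO exceeded SPF LKO by 0.09 ± 0.06 (adjusted p = 0.280), by 0.16 ± 0.05 without the 2 libraries (adjusted p = 0.00967) and by 0.13 without SPF LKO ZT14 replicate 2 alone (adjusted p = 0.0442). In WT the GF value was higher by 0.16 ± 0.07 (adjusted p = 0.0570), and that comparison passed in 17 of 48 alternatives. Those included the omission of any one of SPF WT ZT6 replicates 1 and 2, SPF WT ZT14 replicates 2 and 3, SPF WT ZT18 replicate 2, GF WT ZT2 replicate 1, GF WT ZT6 replicate 2, GF WT ZT10 replicate 2 and GF WT ZT22 replicates 1 and 3 (adjusted p from 0.0170 to 0.0491), and of ZT6 (0.0394) or ZT14 (0.0428).

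At single times, Pcx at ZT6 was 448, 417 and 383 CPM in SPF WT and 303, 326 and 326 CPM in SPF LKO. All 3 LKO livers lay below all 3 WT livers, a log2 difference of -0.39 ± 0.10 (adjusted p = 0.0369), which was lost without any one of SPF WT replicates 1 and 2, the 3 SPF LKO replicates and GF LKO replicate 3 (adjusted p from 0.0558 to 0.149). At ZT18 it was 507, 477 and 493 CPM in GF WT and 344, 311 and 382 CPM in GF LKO, again without overlap (-0.48 ± 0.14, adjusted p = 0.0474), and this call was lost without SPF WT replicate 3 or any of the 6 GF libraries (adjusted p from 0.0598 to 0.147). No rhythm of Pcx was called in any of the 4 groups (adjusted p = 0.138 in SPF WT, 0.336 in SPF LKO, 0.799 there without the 2 libraries, 0.127 in GF WT and 0.303 in GF LKO).

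Pck1, the cytosolic carboxykinase and the classic hormone-controlled step, differed most at ZT2, the early light phase. At ZT2 it was 3415, 1040.1 and 2679.7 CPM in SPF WT, 770.0, 878 and 898 CPM in SPF LKO, 3365, 3887 and 3052 CPM in GF WT and 3041, 1728 and 2312 CPM in GF LKO. The 3 SPF LKO livers were the lowest of the 12 and close to each other, while SPF WT replicate 2 came near them. At this time SPF LKO differed from SPF WT by a log2 fold change of -1.49 ± 0.32 (0.355-fold, adjusted p = 0.0139), and GF LKO exceeded SPF LKO by 1.48 ± 0.32 (2.79-fold, adjusted p = 0.0148). The first call was lost without SPF WT replicate 1 (adjusted p = 0.0662), SPF LKO replicate 1 (0.0665) or SPF LKO replicate 2 (0.05001), and the second without SPF LKO replicate 3 (0.0518), SPF LKO replicate 1 (0.0723) or GF LKO replicate 1 (0.0619). Without 4 libraries the SPF difference also passed at ZT6 (-0.72 ± 0.18, adjusted p = 0.0198). At that ZT the SPF livers were unchanged and GF WT replicate 3 was left out (1052 CPM, against 3698 and 3995). The estimate of the spread was shared over the groups.

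Over all ZT, Pck1 ran from 466 through a median of 2603 to 4677 CPM in SPF WT, from 684 through 1689 to 3783 in SPF LKO, from 625 through 3502 to 5170.0 in GF WT and from 1547 through 2615 to 4710 in GF LKO. All 4 ranges overlapped widely, and the lowest values of all came from WT livers. SPF LKO was lower than SPF WT by -0.51 ± 0.22 (adjusted p = 0.0967), a difference that passed without the 2 libraries at -0.61 ± 0.22 (adjusted p = 0.0393) and also without SPF LKO ZT14 replicate 2 alone (0.0345), SPF WT ZT18 replicate 3 (0.0351) or SPF WT ZT22 replicate 3 (0.0495), and without ZT18 (0.0499). In GF the LKO difference was -0.18 ± 0.20 (95% interval -0.57 to 0.22, adjusted p = 0.553). GF LKO was higher than SPF LKO by 0.63 ± 0.18 (1.55-fold, adjusted p = 0.00494), by 0.73 ± 0.17 without the 2 libraries (adjusted p = 0.00107), and this call held in all 49 alternatives. In WT the GF value was higher by 0.29 ± 0.24 (adjusted p = 0.375).

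A rhythm of Pck1 was called in both LKO groups. In SPF LKO its amplitude was 0.64 on the log2 scale with a peak at ZT 13.5 (adjusted p = 0.0202), but without the 2 libraries it missed the threshold (0.57, adjusted p = 0.0570). In GF LKO the amplitude was 0.39 with a peak at ZT 10.0 (adjusted p = 0.0139). The WT fits gave 0.25 in SPF (adjusted p = 0.702) and 0.30 in GF (adjusted p = 0.596), and the difference in rhythm between genotypes was not called in SPF (adjusted p = 0.592, and 0.724 without the 2 libraries) or GF (0.905), so a rhythm particular to LKO was not shown. The 3 mice of a WT set often differed severalfold, as in SPF WT at ZT18 with 2591, 3106 and 466 CPM, and in GF WT at ZT22 with 5170.0, 2204 and 929 CPM.

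Pck2, the mitochondrial carboxykinase, was lower in GF livers of both genotypes, which in LKO was the reverse of Pck1. It ran from 2.12 through a median of 3.17 to 4.67 CPM in SPF WT and from 1.01 through 1.75 to 2.98 CPM in GF WT, a difference of -0.83 ± 0.13 (0.561-fold, adjusted p = 1.51e-05). It ran from 1.83 through 2.81 to 4.21 CPM in SPF LKO and from 1.33 through 1.99 to 2.69 CPM in GF LKO, a difference of -0.52 ± 0.12 (adjusted p = 0.000662) and of -0.51 ± 0.12 without the 2 libraries (adjusted p = 0.00120). Most GF values lay below the SPF medians, although the ranges overlapped, and both calls held in every alternative. The LKO and WT levels differed by -0.16 ± 0.12 in SPF (adjusted p = 0.346, and 0.321 without the 2 libraries) and by 0.14 ± 0.13 in GF (adjusted p = 0.453).

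By time, Pck2 at ZT2 was 2.49, 4.10 and 3.24 CPM in SPF WT and 1.05, 1.71 and 1.12 CPM in GF WT, without overlap (-1.33 ± 0.30, adjusted p = 0.0166). That call was lost without SPF WT replicate 2 (adjusted p = 0.0536), SPF WT replicate 3 (0.0517), GF WT replicate 1 (0.0517) or GF WT replicate 3 (0.0612). At ZT22 it was 4.21, 3.42 and 3.75 CPM in SPF LKO and 2.28, 1.45 and 1.77 CPM in GF LKO, also without overlap (-1.04 ± 0.22, adjusted p = 0.0298), and was lost without any of the SPF LKO replicates or without GF LKO replicate 2 or 3 (adjusted p from 0.0504 to 0.139). A rhythm of Pck2 was called in SPF WT only (amplitude 0.34, peak ZT 7.03, adjusted p = 0.0233), a difference in rhythm from SPF LKO was not called (adjusted p = 0.373, and 0.293 without the 2 libraries), and the rhythm call was lost when the replicates of any one number were left out (adjusted p from 0.0931 to 0.214).

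Fbp1 was the steadiest of the 7 genes and was lower by a small margin in LKO among GF mice. It ran from 685 through a median of 834 to 1026 CPM in SPF WT and from 623 through 734 to 1040.1 CPM in SPF LKO, with a highest value of 914 CPM there without the 2 libraries. In GF WT it ran from 623 through 921 to 1133 CPM and in GF LKO from 684 through 777 to 892 CPM. The GF LKO livers filled only the lower part of the GF WT range. The difference was -0.22 ± 0.05 in GF (0.857-fold, adjusted p = 0.00134), held under every alternative, and -0.13 ± 0.06 in SPF (adjusted p = 0.131), -0.18 ± 0.06 there without the 2 libraries (adjusted p = 0.0122) and -0.16 without SPF LKO ZT14 replicate 2 alone (adjusted p = 0.0330). GF WT exceeded SPF WT by 0.12 ± 0.06 (adjusted p = 0.118), which passed without GF WT ZT2 replicate 1 (0.0230), and GF LKO exceeded SPF LKO by 0.04 ± 0.06 (adjusted p = 0.592, and 0.108 without the 2 libraries).

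The difference in Fbp1 was widest at ZT10, late in the light phase. The livers read 996, 978 and 1133 CPM in GF WT and 719, 744 and 752 CPM in GF LKO, so that every LKO value lay well below every WT value (-0.49 ± 0.10, 0.713-fold, adjusted p = 0.00438). In SPF the ZT10 values were 784, 818 and 898 CPM in WT and 763, 710.3 and 756 CPM in LKO. A rhythm of Fbp1 was called in SPF WT (amplitude 0.17, peak ZT 16.5, adjusted p = 0.0489), a call close to the threshold that was lost under 8 alternatives. Its adjusted p was 0.4496 in SPF LKO (0.927 without the 2 libraries), 0.0871 in GF WT and 0.489 in GF LKO.

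G6pc, the catalytic subunit that releases glucose, was higher in GF than in SPF livers of LKO mice and, among GF mice at ZT10, higher in LKO. It ran from 256 through a median of 601 to 1005 CPM in SPF WT, from 481 through 722 to 1126 CPM in SPF LKO, from 311 through 697 to 1532 CPM in GF WT and from 409 through 951 to 1560 CPM in GF LKO. These ranges overlapped, with the GF LKO median the highest. GF LKO exceeded SPF LKO by 0.46 ± 0.12 (1.37-fold, adjusted p = 0.00352), by 0.47 ± 0.13 without the 2 libraries (adjusted p = 0.00419), and the call held in all 49 alternatives. GF WT exceeded SPF WT by 0.41 ± 0.18 (adjusted p = 0.0790), which passed without SPF WT ZT22 replicate 1 (0.0421), GF WT ZT10 replicate 2 (0.04003) or GF WT ZT14 replicate 3 (0.0457), with ZT as a factor (0.0378) and with the replicate number as a block (0.0326). The LKO difference was 0.25 ± 0.14 in SPF (adjusted p = 0.184, 0.219 without the 2 libraries and 0.0152 without ZT22) and 0.29 ± 0.17 in GF (adjusted p = 0.208).

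The ZT with the highest mean of G6pc was not the same in WT and LKO, but a difference in rhythm was not called in the main fits. In SPF WT the ZT means were lowest at ZT10 (446 CPM) and highest at ZT22 (895 CPM), and in GF WT lowest at ZT10 (519 CPM) and highest at ZT18 (1062 CPM). In both LKO groups the highest mean fell at ZT10 instead, at 905 CPM in SPF and 1228 CPM in GF. The cosine peaked at ZT 20.7 in SPF WT (amplitude 0.42, adjusted p = 0.0445) and at ZT 21.1 in GF WT (0.53, adjusted p = 0.0558). The SPF WT call was lost in 4 of 9 alternatives. These were ZT as a factor (0.140) and the omission of the replicates of any one number (0.0701 to 0.196). The GF WT rhythm passed in 2 of 9. In LKO it peaked at ZT 10.9 in SPF (0.25, adjusted p = 0.169, and ZT 10.5, 0.27 and 0.133 without the 2 libraries) and at ZT 9.68 in GF (0.22, adjusted p = 0.267), neither called. G6pc came nearest of the 7 to a difference in rhythm between genotypes, but the adjusted p missed the threshold in SPF (0.0723, and 0.0551 without the 2 libraries) and in GF (0.0653, and 0.0303 in the fit with the replicate number as a block).

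At ZT10 the 3 LKO livers lay above the 3 WT livers under both microbial statuses. The SPF WT values were 490, 593 and 256 CPM and the SPF LKO values 788, 1126 and 801 CPM (1.02 ± 0.33, adjusted p = 0.0610). The GF WT values were 747, 311 and 499.5 CPM and the GF LKO values 1283, 842 and 1560 CPM (1.24 ± 0.33, 2.37-fold, adjusted p = 0.0216). The GF call was lost without GF WT replicate 2 (0.0972), GF WT replicate 3 (0.0727), GF LKO replicate 1 (0.0535) or GF LKO replicate 3 (0.0940).

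At ZT2 G6pc separated by microbial status. SPF WT read 384, 616 and 648 CPM and GF WT 687, 1067 and 1072 CPM, while SPF LKO read 548, 525 and 617 CPM and GF LKO 991, 1169 and 1005 CPM. In neither genotype did the GF and SPF livers overlap. The difference was 0.78 ± 0.20 in WT (adjusted p = 0.0276), lost without SPF WT replicate 1 (0.0776), GF WT replicate 2 (0.0577) or GF WT replicate 3 (0.0818), and 0.91 ± 0.20 in LKO (1.88-fold, adjusted p = 0.0146), lost only without SPF LKO replicate 1 (0.0661).

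Slc37a4, the transporter that delivers glucose 6-phosphate to G6pc, was the one gene with a called rhythm in all 4 groups. Its mean was 128 CPM at ZT2 and 259.8 CPM at ZT14 in SPF WT, 87.9 and 223 CPM in SPF LKO, 166 and 339 CPM in GF WT and 132 and 247 CPM in GF LKO, so that the level after lights off was the higher in each group. The amplitude was 0.56 with a peak at ZT 13.4 in SPF WT (adjusted p = 1.32e-05), 0.64 at ZT 14.2 in SPF LKO (6.27e-06, and 0.61 at ZT 14.2 without the 2 libraries, 8.81e-06), 0.52 at ZT 12.02 in GF WT (2.49e-05) and 0.51 at ZT 12.8 in GF LKO (0.000349). A difference in rhythm was not called between any pair of groups (adjusted p from 0.231 to 0.864).

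Around this wave the level of Slc37a4 was lower in LKO among GF mice. It ran from 152 through a median of 251 to 383 CPM in GF WT and from 104 through 155 to 277 CPM in GF LKO, a difference of -0.51 ± 0.14 (0.700-fold, adjusted p = 0.00385) that held under every alternative. It ran from 117 through 188 to 281 CPM in SPF WT and from 82.3 through 135 to 257 CPM in SPF LKO, a difference of -0.32 ± 0.15 (adjusted p = 0.115), and of -0.40 ± 0.14 without the 2 libraries (adjusted p = 0.0338), or -0.38 without SPF LKO ZT14 replicate 2 alone (adjusted p = 0.0418). With ZT as a factor the SPF difference was -0.33 with an adjusted p of 4.06e-05. GF WT was higher than SPF WT by 0.40 ± 0.13 (1.32-fold, adjusted p = 0.0222), a call that was lost without ZT6 (adjusted p = 0.112). GF LKO was higher than SPF LKO by 0.21 ± 0.15 (adjusted p = 0.280, and 0.119 without the 2 libraries), which passed with ZT as a factor (0.23, adjusted p = 0.0171) and with the replicate number as a block (0.22, adjusted p = 0.0289).

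At ZT6, Slc37a4 was 201, 127 and 130.2 CPM in SPF WT, 130.2, 116 and 105 CPM in SPF LKO, 249.6, 252 and 284 CPM in GF WT and 117, 135 and 157 CPM in GF LKO. The 3 GF WT livers stood above the other 9, and GF LKO was 0.521-fold of GF WT (-0.94 ± 0.17, adjusted p = 0.00358), a call kept in all 17 alternatives. GF WT exceeded SPF WT at ZT6 by 0.79 ± 0.17 (adjusted p = 0.0428), and this call was lost without any of 10 of the 12 libraries at that ZT (adjusted p from 0.0510 to 0.157), the exceptions being SPF WT replicate 1 and GF LKO replicate 1. At ZT18 it was 282, 205 and 247 CPM in GF WT and 162, 161 and 175 CPM in GF LKO (-0.53 ± 0.13, adjusted p = 0.0274), lost without GF WT replicate 1 or 3 or any GF LKO replicate (adjusted p from 0.0593 to 0.103).

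At ZT2, Slc37a4 was 135, 117 and 131 CPM in SPF WT, 82.3, 95.1 and 86.4 CPM in SPF LKO and 153, 136 and 107 CPM in GF LKO. The SPF LKO livers lay below those of both other groups. The difference from SPF WT was -0.54 ± 0.13 (adjusted p = 0.0267), lost without SPF WT replicate 1 (0.104), SPF WT replicate 3 (0.0837), SPF LKO replicate 1 (0.118) or SPF LKO replicate 3 (0.0930). GF LKO exceeded SPF LKO by 0.59 ± 0.13 (adjusted p = 0.0174), lost without SPF LKO replicate 1 (0.0848), SPF LKO replicate 3 (0.0685), GF LKO replicate 1 (0.0832) or GF LKO replicate 2 (0.0519).

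Ppargc1a, the coactivator, did not pass in any of the 4 comparisons pooled over ZT with all libraries. It ran from 4.29 through a median of 10.9 to 15.6 CPM in SPF WT, from 4.77 through 8.08 to 16.9 CPM in SPF LKO, from 5.61 through 13.6 to 22.8 CPM in GF WT and from 5.01 through 9.19 to 31.2 CPM in GF LKO. All ranges overlapped, and the value of 16.9 CPM was that of SPF LKO ZT14 replicate 2, against a highest value of 11.3 CPM in the other SPF LKO libraries. The LKO difference was -0.31 ± 0.14 in SPF (adjusted p = 0.125), which passed without the 2 libraries (-0.39 ± 0.14, adjusted p = 0.0305) and without SPF LKO ZT14 replicate 2 alone (0.0270) or without ZT14 (0.0169), and -0.23 ± 0.22 in GF (adjusted p = 0.466). GF exceeded SPF by 0.34 ± 0.17 in WT (adjusted p = 0.111, and 0.0455 without ZT22) and by 0.43 ± 0.20 in LKO (adjusted p = 0.0936). The LKO comparison passed at 0.52 ± 0.21 without the 2 libraries (adjusted p = 0.0460), without SPF LKO ZT14 replicate 2 alone (0.0388) or without ZT14 (0.0483). Without 4 libraries the WT comparison passed at 0.43 ± 0.16 (adjusted p = 0.0379), and at ZT14 alone GF LKO was then lower than GF WT (-1.002 ± 0.21, adjusted p = 0.00700) and GF WT higher than SPF WT (1.42 ± 0.25, adjusted p = 0.0135). With all libraries those ZT14 differences had adjusted p of 0.258 and 0.484. The libraries left out at ZT14 were the highest of their sets. They were SPF WT replicate 3 (15.3 CPM, against 4.29 and 7.23) and SPF LKO replicate 2 (16.9, against 5.07 and 4.77). The GF livers were the same in both fits, and each fit took a shared estimate of the spread over the groups. The rhythm of Ppargc1a was called in no group (adjusted p from 0.574 to 0.954, and 0.548 in SPF LKO without the 2 libraries).

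The genes also moved together to different degrees. Over the 24 group-by-ZT means of log2 CPM, Slc37a4 correlated with Pcx (r = 0.78), Fbp1 (0.71) and Pck1 (0.63), and Fbp1 with Pcx (0.71), while Pck2 and G6pc were opposed (-0.66). Over the 72 livers, after the mean of each set was taken away, r was highest for Pck1 with Ppargc1a (0.64) and Fbp1 with Pcx (0.60). Next came Pck1 with G6pc (0.41), a pair with an r of only 0.13 over the 24 means, and Slc37a4 with Ppargc1a (0.40, and 0.29 over the means). These are descriptions without a test, since both genes of a pair are read from the same libraries with the same scaling.

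Among 10334 expressed genes, the pattern most like that of Slc37a4 over the 24 means was that of Hs3st3b1 (r = 0.93) and Gpt2 (0.93), the latter a mitochondrial alanine aminotransferase, followed by Atl2 (0.92). For Pcx these were Fads2 (0.91), a fatty acid desaturase, C2 (0.90) and Pdia5 (0.89), for Fbp1 Map2k1, Nadk and Sod2 (each 0.87), and for Pck1 Errfi1 (0.88), Slc38a2 (0.85), an amino acid transporter, and AA986860 (0.85). For G6pc these were Arl4a (0.84), Clic4 (0.83) and Ei24 (0.83), and for Ppargc1a Ell2 (0.86), Cdc40 (0.76) and C9orf72 (0.76). For Pck2 they were Sall2 (0.85), Kcp (0.83) and Fermt3 (0.83). When the 2 libraries were left out, the 3 of Pck2 were replaced by others. Bhmt and Tra2b then took the place of Clic4 and Ei24 for G6pc, Cep120 that of Cdc40 for Ppargc1a, and Bet1l that of Atl2 for Slc37a4.

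Around these steps, 25 genes of the reversible and feeder reactions shared with glycolysis, the malate-aspartate shuttle, the mitochondrial pyruvate carrier and glycerol and alanine entry were read in the same tests, of which 24 were tested. In SPF LKO against SPF WT 8 of 24 passed, 3 higher and 5 lower, beside 23.1% of all genes, with a median of -0.10, and 13 (3 higher, 10 lower) passed without the 2 libraries, beside 28%. The cytosolic aspartate aminotransferase Got1 rose (0.58 ± 0.15) and Pgam1 rose (0.38 ± 0.11), whereas the glycerol 3-phosphate dehydrogenase Gpd1 (-0.33 ± 0.07), the enolase Eno1 (-0.31 ± 0.09) and Gapdh (-0.30 ± 0.08) fell. In the fit without the 2 libraries these 5 were 0.57, 0.40, -0.39, -0.41 and -0.37. In GF LKO against GF WT 12 of 24 passed, 2 higher and 10 lower, beside 30.8% of all genes, with a median of -0.19. There Gpt2 (-0.57 ± 0.12), Eno1 (-0.57 ± 0.07), Tkfc, the triose kinase (-0.57 ± 0.11), the pyruvate carrier subunit Mpc1 (-0.45 ± 0.07) and Gapdh (-0.39 ± 0.07) fell and Got1 rose (0.45 ± 0.15). None of the 24 passed the interaction, and 0 of 24 is read beside 0.438% of all genes.

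The same list leaned the other way in the microbiota comparisons. In GF WT against SPF WT 12 of 24 passed and all 12 were higher, beside 31.8% of all genes, with a median of 0.21 beside -0.02 over all genes tested. In the same comparison 4 of 5 hepatocyte markers passed, all higher with a median of 0.37, as did 3 of 5 pericentral hepatocyte markers with a median of 0.29, and their part in this result was not tested. Got1 rose most (0.88 ± 0.17), followed by Pgk1 (0.37 ± 0.08), the malate dehydrogenases Mdh1 (0.33 ± 0.07) and Mdh2 (0.32 ± 0.06), the citrate carrier Slc25a1 (0.29 ± 0.05) and the oxoglutarate carrier Slc25a11 (0.27 ± 0.06). In GF LKO against SPF LKO 10 of 24 passed, 9 higher and 1 lower, beside 36.4% of all genes, with Got1 (0.77 ± 0.13), Mdh1 (0.32 ± 0.06), Pgk1 (0.29 ± 0.07), Ldha (0.28 ± 0.06) and Tpi1 (0.26 ± 0.06) rising and Tkfc falling (-0.53 ± 0.11). Without the 2 libraries 11 (10 higher, 1 lower) passed, beside 36.7%, and these 6 were 0.77, 0.35, 0.38, 0.27, 0.30 and -0.45.

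Of 18 receptors and transcription regulators of the pathway, 7 passed in SPF LKO against SPF WT (2 higher, 5 lower), beside 23.1% of all genes, and 5 in GF LKO against GF WT (2 higher, 3 lower), beside 30.8%, with 9 (2 higher, 7 lower) in SPF without the 2 libraries, beside 28%. Clock genes led both: Nr1d1, a BMAL1 target that encodes the repressor REV-ERBα, fell (-2.93 ± 0.53 in SPF and -2.80 ± 0.48 in GF), and Cry1, a repressor of glucagon signalling as well as of the clock, rose by 1.37 and 1.16. Ppargc1b fell in both (-0.68 ± 0.17 and -0.56 ± 0.19), Cry2 rose in both (0.37 ± 0.10 and 0.45 ± 0.09), the corepressor gene Nr0b2 (-0.61 ± 0.22) and Klf15 (-0.41 ± 0.14) fell in SPF, and Cebpa fell in GF (-0.27 ± 0.10). The SPF values without the 2 libraries were -2.91 for Nr1d1, 1.43 for Cry1, -0.67 for Ppargc1b, 0.38 for Cry2, -0.62 for Nr0b2 and -0.46 for Klf15. In GF WT against SPF WT 2 of 18 passed beside 31.8% of all genes, the glucagon receptor Gcgr (-0.20 ± 0.05) and the CREB coactivator Crtc2 (-0.18 ± 0.06), both lower. In GF LKO against SPF LKO 4 of 18 passed beside 36.4% of all genes, with Klf15 (0.33 ± 0.12) and Foxo1 (0.30 ± 0.12) higher and Nr3c1 (-0.19 ± 0.05) and Crtc2 (-0.18 ± 0.04) lower, and 4 (2 higher, 2 lower) passed without the 2 libraries, beside 36.7%, at 0.39, 0.33, -0.19 and -0.17 for these genes.

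A list of 8 genes covered the opposing steps of glycolysis and pyruvate oxidation together with their regulators. Since some of these regulators restrain the steps, higher and lower counts give no direction of the steps. Of the 8, 4 passed in SPF LKO against SPF WT (2 higher, 2 lower), beside 23.1% of all genes. Without the 2 libraries 4 passed (2 higher, 2 lower), beside 28%. In GF LKO against GF WT 5 passed (2 higher, 3 lower), beside 30.8%. Pdk4, the kinase that shuts pyruvate dehydrogenase and so spares pyruvate, rose by 1.56 ± 0.31 in SPF and by 0.96 ± 0.27 in GF. Gckr, the glucokinase regulator, rose (0.46 ± 0.08 and 0.60 ± 0.06), and Pdha1, a pyruvate dehydrogenase subunit, fell (-0.37 ± 0.06 and -0.44 ± 0.05), as did Pdk2 (-0.20 ± 0.07 and -0.37 ± 0.08). For these 4 the SPF values without the 2 libraries were 1.61, 0.52, -0.43 and -0.23. The liver pyruvate kinase Pklr fell in GF LKO against GF WT (-0.64 ± 0.15) and was lower in GF LKO than in SPF LKO (-0.85 ± 0.13). In the microbiota comparisons 2 of 8 passed in each genotype, beside 31.8% of all genes in WT and 36.4% in LKO, and the bifunctional phosphofructokinase gene Pfkfb1 was higher in GF in both (0.58 ± 0.16 in WT and 0.54 ± 0.14 in LKO), beside a lower Gckr in GF WT (-0.22 ± 0.07). In GF LKO against SPF LKO 2 (1 higher, 1 lower) passed without the 2 libraries, beside 36.7%, with Pklr at -0.78 and Pfkfb1 at 0.59.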

How the data were processed

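The authors aligned reads to mm10 with STAR 2.6.1b and deposited integer counts per Ensembl gene from featureCounts 2.0.0, summed over exons without use of strand. Reads of genes that overlap on the other strand (Lrfn4 with Pcx, for example) therefore could not be told apart, and such genes held at most 769 counts over all libraries against 513077 for Pcx. From these counts, edgeR 4.0.16 (R 4.3.3, with TMM scaling and genes kept by its expression filter) gave quasi-likelihood tests. Genotype and microbial status were tested over all ZT, and at each ZT from 1 fit over the 12 libraries of that ZT. The cosine and sine of 24 h were fitted to the 18 libraries of each group apart. Genes in those fits were those kept by the filter over all 72 libraries. A difference in rhythm was tested over the libraries of both groups of a pair. Alternatives used DESeq2 1.42.0 and limma 3.58.1. CPM is counts per 1000000 of the library total over the genes kept by the filter, with that total scaled by its TMM factor. The factors ran from 0.8336 to 1.193, and log2 CPM used a prior count of 2. Scripts were tested on simulated data.

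The 7 genes, the gene lists and the 2 libraries set apart were chosen with earlier results of these data known. List genes named are those past the threshold, largest difference first, up to 6 a list, except 1 that is not reported here, and the 3 most alike genes are those with the highest Pearson r. The test of the interaction at each ZT and the omission of single libraries from the pooled fits were added after seeing the data. The labels give no mouse number, and the study's methods state 3 mice for each time point and group, so each library was taken as 1 mouse.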

Additional observations from a re-analysis of the deposited data

How the results depend on the processing

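No member changed direction past the threshold under any alternative. The 3 genes called in GF LKO against GF WT stayed called in all 48 alternatives, and the interaction stayed at 0 in all 13. For SPF LKO against SPF WT the count of 1 became 0 without the filter on low counts, 3 with ZT as a factor, 2 with the replicate number as a block, 5 without the 2 libraries, 2 without 4 libraries, 0 without ZT2, ZT6 or ZT10 and 2 without ZT14, ZT18 or ZT22, and ran from 1 to 5 when single libraries were left out (5 without SPF LKO ZT14 replicate 2, and 2 without SPF WT ZT18 replicate 3 or SPF WT ZT22 replicate 3). The 4 libraries are the 2 named and SPF WT ZT14 replicate 3 and GF WT ZT6 replicate 3. For GF WT against SPF WT the count of 2 became 4 with ZT as a factor and 4 without 4 libraries. It ran from 2 to 4 with single libraries left out (4 without GF WT ZT2 replicate 1 or GF WT ZT10 replicate 2). In this comparison Pcx also passed with DESeq2 (adjusted p = 0.0379), with RLE in place of TMM scaling (0.0420) and without the filter on low counts (0.0466). Pcx passed without ZT14 too (0.0428), and Ppargc1a without ZT22 (0.0455). For GF LKO against SPF LKO the count of 3 became 4 with ZT as a factor, and 5 without the 2 or the 4 libraries. It ran from 3 to 5 with single libraries left out (5 without SPF LKO ZT14 replicate 2), and Ppargc1a also passed without ZT14 (adjusted p = 0.0483). At single ZT, the 3, 5, 3 and 4 calls of the 4 comparisons became 8, 11, 10 and 11 without the filter on low counts, 5 in the third with DESeq2, and ran from 0 to 4, 2 to 5, 0 to 3 and 0 to 4 with 1 library of the ZT left out. Rhythm calls went from 4 to 1 in SPF WT and from 2 to 1 in SPF LKO with ZT as a factor, from 2 to 1 in SPF LKO without the 2 or the 4 libraries, and from 1 to 2 in GF WT without 4 libraries. Leaving out the replicates of 1 number gave 1 in SPF WT, 1 in SPF LKO, 1 to 4 in GF WT and 1 to 2 in GF LKO. The cause of these changes was not tested. Among the alternatives, the share of all genes called in the same fit is given only for some fits without the 2 or the 4 libraries. For the other alternatives, a change particular to these genes cannot be told apart from a change over all genes.

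The replicate numbers were not used as pairs in the main fits. The deviations of same-numbered libraries correlated between -0.23 and 0.34, with 2 to 5 of 18 pairs over 0.1 in each comparison. The medians of the comparisons ran from -0.019 to 0.020, and from -0.025 to 0.013 for libraries of different numbers. Whether same-numbered libraries shared a cage, day or batch was not tested, and the labels do not say. With the replicate block, the pooled counts were 2, 3, 3, 4 and 0 (SPF genotype, GF genotype, WT microbiota, LKO microbiota, interaction), the counts at single ZT 2, 4, 2 and 3, and the rhythm counts 3 and 2 in SPF WT and SPF LKO and 2 and 2 in the GF groups of the same genotypes, and the difference in rhythm was called for 1 gene in GF (0 in the other 3 comparisons). The share of all genes called with the block is not given, so these counts cannot be read against it. Depth limits Pck2 most, with 16 to 99 counts a library.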

Other observations

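The library numbered 3 had the lowest Pck1 of its set in 9 of the 12 WT sets and in 0 of the 12 LKO sets, and the lowest Ppargc1a in 7 of 12 WT sets and in 1 of 12 LKO sets. For Pck1 this held in 4 of 6 SPF WT sets and 5 of 6 GF WT sets, for example at ZT22 in SPF WT (3335, 2616 and 726 CPM) and at ZT14 in GF WT (4245, 4166 and 1523 CPM). In SPF LKO the lowest library was number 1 in 5 of 6 sets. Replicate numbers carry no order in the labels, and what the numbers share was not tested.

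Among marker lists of other cells, the acinar genes Prss2, Cpa1 and Pnlip were at 0 in 69, 67 and 69 of the 72 libraries and the adipocyte genes Adipoq and Plin1 in 49 and 64. The other acinar marker, Cela1, was above 0 in every library (19.8 to 136 CPM) and higher in LKO by 1.27 in SPF, 1.38 there without the 2 libraries and 1.13 in GF on the log2 scale. The other adipocyte marker, Cidec, was also above 0 in every library (0.464 to 9.57 CPM), and its difference in LKO was -1.005 in SPF, -1.20 there without the 2 libraries and -1.36 in GF.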
